A study of Mus musculus with 138 samples.

Results

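The 10 macrophage genes C1qa, C1qb, C1qc, Mrc1, Pf4, Csf1r, Cd163, Adgre1, Lyve1 and Fcrls were followed through the regions of the mouse calvarial sutures. They were chosen by name, as 10 of 55487 genes counted, and all 10 were among the 19768 genes with enough counts to be tested. RNA was taken by laser capture from frozen heads of wild-type C57BL/6J embryos at the embryonic stages E16.5 and E18.5, in the coronal, frontal, lambdoid and sagittal sutures. In each suture the suture mesenchyme (SM), the tissue between the bones, was captured apart from the osteogenic fronts (OF), the bone edges of the frontal (FR), parietal (PA) or interparietal (IP) bones. The coronal suture has FR and PA fronts, the lambdoid IP and PA fronts, the frontal suture an FR front and the sagittal a PA front, which gives 20 groups with 5 biological replicates each. Leaving off the last number of each litter label, the 5 replicates of a suture and stage share 2 to 4 labels, so some replicates appear to be littermates. Repeat libraries of 18 coronal samples, 16 complete-suture control libraries at E18.5 (4 sets, each with 1 library per suture) and 4 single-cell libraries of the coronal suture were also read. No group carried a mutation or a treatment, so no library serves as a macrophage-free background.

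Tissue-resident macrophages clear dead cells and debris, tune matrix turnover and, in bone, share the CSF1 receptor with the precursors of osteoclasts, the cells that resorb bone. Embryonic tissues are seeded with macrophages from the yolk sac and fetal liver before definitive bone marrow is active. C1qa, C1qb and C1qc encode the chains of C1q, which starts the classical complement pathway and tags dying cells for uptake. Mrc1 (the mannose receptor CD206) and Cd163 (the haemoglobin-haptoglobin receptor) are scavenger receptors, Lyve1 is a hyaluronan receptor also made by lymphatic endothelium, and Pf4 is a chemokine also made by megakaryocytes. Csf1r is the receptor for CSF1 and IL34, Adgre1 encodes F4/80, and Fcrls is an Fc receptor-like gene expressed by microglia and some other macrophages. In captured bulk tissue, fewer cells of a type and less RNA of that type per cell cannot be told apart.

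In mm10 the C1q genes lie side by side on the minus strand of chromosome 4: C1qb at chr4:136880129-136886187, C1qc at chr4:136889804-136893065 and C1qa at chr4:136895917-136898803. Mrc1 lies at chr2:14229392-14332057 on the plus strand. Pf4 lies at chr5:90772435-90773383 and Cd163 at chr6:124304656-124330527, also on the plus strand. The sequences upstream of 6 members were at hand from RefSeq (GRCm38.p6), and those of C1qa, Csf1r, Adgre1 and Lyve1 were not. The 6 were searched on both strands for GAGGAA, the purine-rich core bound by PU.1, a transcription factor of myeloid cells. That core, or its complement TTCCTC, occurred in the 250 bases before the RefSeq start of 5 of the 6, against 23.25% of all 32851 promoters at hand. The Fcrls match, at -144, lies inside the annotated gene, before which only 36 of the 250 bases fall. The longer form AGAGGAAG occurred in 2 of 6 (3.665% of all promoters) and TGACTCA, the AP-1 site, in 0 of 6 (4.463%). The bases before the annotated start are given for C1qb (chr4:136886201-136886450, minus strand), Mrc1 (chr2:14229164-14229391, plus), Pf4 (chr5:90772185-90772434, plus) and Cd163 (chr6:124304401-124304650, plus), a complement chain, both scavenger receptors and the chemokine among the 6 listed, with the core in capitals.
C1qb: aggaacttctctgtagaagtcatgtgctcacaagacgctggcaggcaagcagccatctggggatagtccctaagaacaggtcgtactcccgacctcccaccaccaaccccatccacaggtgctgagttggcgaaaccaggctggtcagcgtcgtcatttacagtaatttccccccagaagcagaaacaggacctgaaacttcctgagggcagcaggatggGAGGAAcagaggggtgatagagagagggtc
Mrc1: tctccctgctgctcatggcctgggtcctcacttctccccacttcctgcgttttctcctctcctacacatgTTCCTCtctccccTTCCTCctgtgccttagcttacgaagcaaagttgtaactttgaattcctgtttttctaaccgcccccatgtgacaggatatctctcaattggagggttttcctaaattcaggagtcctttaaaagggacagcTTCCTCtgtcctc
Pf4: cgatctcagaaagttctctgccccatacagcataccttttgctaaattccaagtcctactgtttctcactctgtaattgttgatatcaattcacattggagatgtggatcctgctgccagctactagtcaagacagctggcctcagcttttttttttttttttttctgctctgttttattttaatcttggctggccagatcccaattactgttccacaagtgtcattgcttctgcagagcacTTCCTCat
Cd163: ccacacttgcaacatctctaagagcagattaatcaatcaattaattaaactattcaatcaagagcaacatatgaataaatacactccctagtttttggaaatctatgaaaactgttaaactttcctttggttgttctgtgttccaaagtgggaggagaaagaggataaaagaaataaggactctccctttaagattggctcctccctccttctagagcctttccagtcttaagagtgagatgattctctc
Mrc1 held 3 matches, C1qb and Pf4 1 each, and Cd163 none in this window. A match describes the letters and was not tested as a binding site.

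The first libraries held 7305627 to 34518477 counts in genes (median 14244957). The 30 coronal libraries were deeper than the rest, at 20873549 to 34518477 at E16.5 and 20133332 to 29099736 at E18.5, against at most 18450955 in the other sutures. TMM scaling factors (edgeR's correction for library composition) ran from 0.494 to 1.02 in the coronal E16.5 libraries and from 0.605 to 1.30 in the other 85. Results are therefore also given without the coronal suture and with its second libraries, and the part of depth in them was not tested. As a check of the regions, 9 of 10 osteoblast genes were called lower in SM than in OF at E16.5 and 10 of 10 at E18.5 (median log2 differences -3.40 and -4.00). Levels are counts scaled to the library total after TMM correction (CPM) and differences are log2 ratios with their standard error (SE). A difference was called at an adjusted p under 0.05 (edgeR quasi-likelihood test, Benjamini-Hochberg over 19768 genes).

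All 10 genes were read in the sutures, at levels that differed widely between genes. On the scale of CPM averaged over the 100 first libraries, Mrc1 stood highest at 66.3, followed by Csf1r at 32.6, C1qb at 18.3, C1qc at 15.5 and Pf4 at 15.04. Fcrls averaged 10.7 CPM, Adgre1 9.17, Lyve1 9.12 and Cd163 5.43. C1qa was the lowest at 1.901 CPM and had 0 counts in 11 of the 100 libraries, whereas the other 9 genes had counts in every one. Per kilobase of gene model the order was Pf4 (20.9 CPM per kb), C1qb (16.8), Mrc1 (10.4), C1qc (8.03), Csf1r (5.65), Fcrls (4.58), Lyve1 (3.12), Adgre1 (2.83), C1qa (1.83) and Cd163 (0.995). C1qa was therefore read at far below its partner chains C1qb and C1qc on both scales, although the 3 chains form 1 protein. The single-cell libraries of the coronal suture did not show this gap: C1qa, C1qb and C1qc had 354, 458 and 363 UMIs in the first E16.5 library and 291, 269 and 184 in the second.

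Summed over the 10 genes, the level was highest in the SM of the frontal suture, where it averaged 362 CPM ± 36.4 (SD, n = 5) at E18.5 and 299 ± 84.7 at E16.5. The lambdoid SM at E18.5 (275 ± 70.9) and the coronal SM at E18.5 (238 ± 47.8) followed, then the E16.5 frontal FR (219.5 ± 33.5) and lambdoid SM (217 ± 76.2). The middle of the order ran from the E18.5 frontal FR (201 ± 28.2) and lambdoid PA (192 ± 27.95) to the E16.5 sagittal PA (174 ± 17.2) and the E18.5 lambdoid IP (174 ± 25.6). Next came the E18.5 sagittal SM (166 ± 14.1), E16.5 lambdoid PA (161 ± 39.4), E18.5 sagittal PA (159 ± 41.7) and E18.5 coronal FR (157 ± 12.2). Below them were the E16.5 sagittal SM (144 ± 9.55), the E16.5 lambdoid IP (131 ± 28.4) and the coronal PA at E18.5 (116 ± 29.3) and E16.5 (114 ± 9.42). The coronal FR (94.1 ± 14.97) and coronal SM (86.7 ± 17.97) at E16.5 were lowest. Neighbours in this order lay closer together than the larger of their SDs, except the coronal PA and FR fronts at E16.5 (19.8 CPM apart) and, narrowly, the E18.5 coronal FR and E16.5 sagittal SM (12.9 CPM apart).

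**Figure D1:**
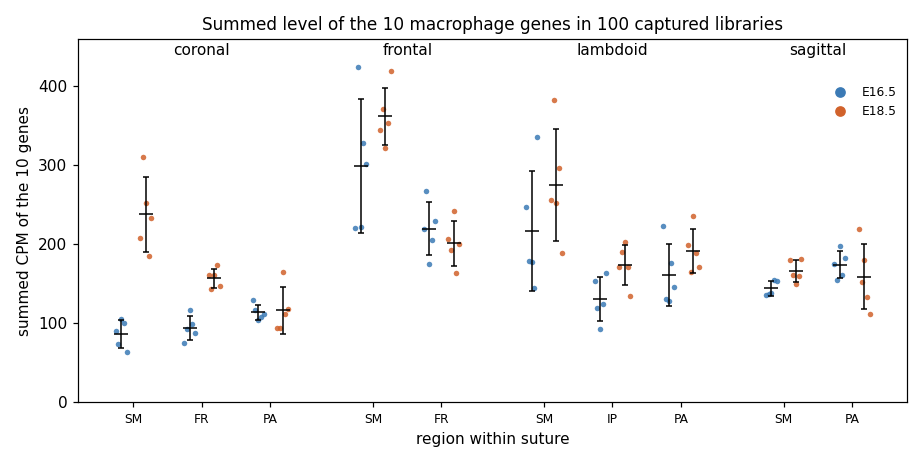
Summed level of the 10 genes (CPM, vertical axis) in each of the 100 first libraries (points) of the 20 groups, E16.5 in blue and E18.5 in orange, with the mean and SD of each group of 5 as bars. The coronal SM goes from 63.1 to 106 CPM at E16.5 to 185 to 310.1 CPM at E18.5, and the frontal SM at E18.5 is the highest group at 322 to 419 CPM.

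The coronal SM was the clearest case of a group that moved as a whole. Its 5 libraries summed to 90.2, 73.7, 106, 100.4 and 63.1 CPM at E16.5 and to 207, 310.1, 253, 185 and 233 CPM at E18.5. The ranges did not overlap. The coronal PA front, by contrast, averaged 114 and 116 CPM at the same stages.

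**Figure D2:**
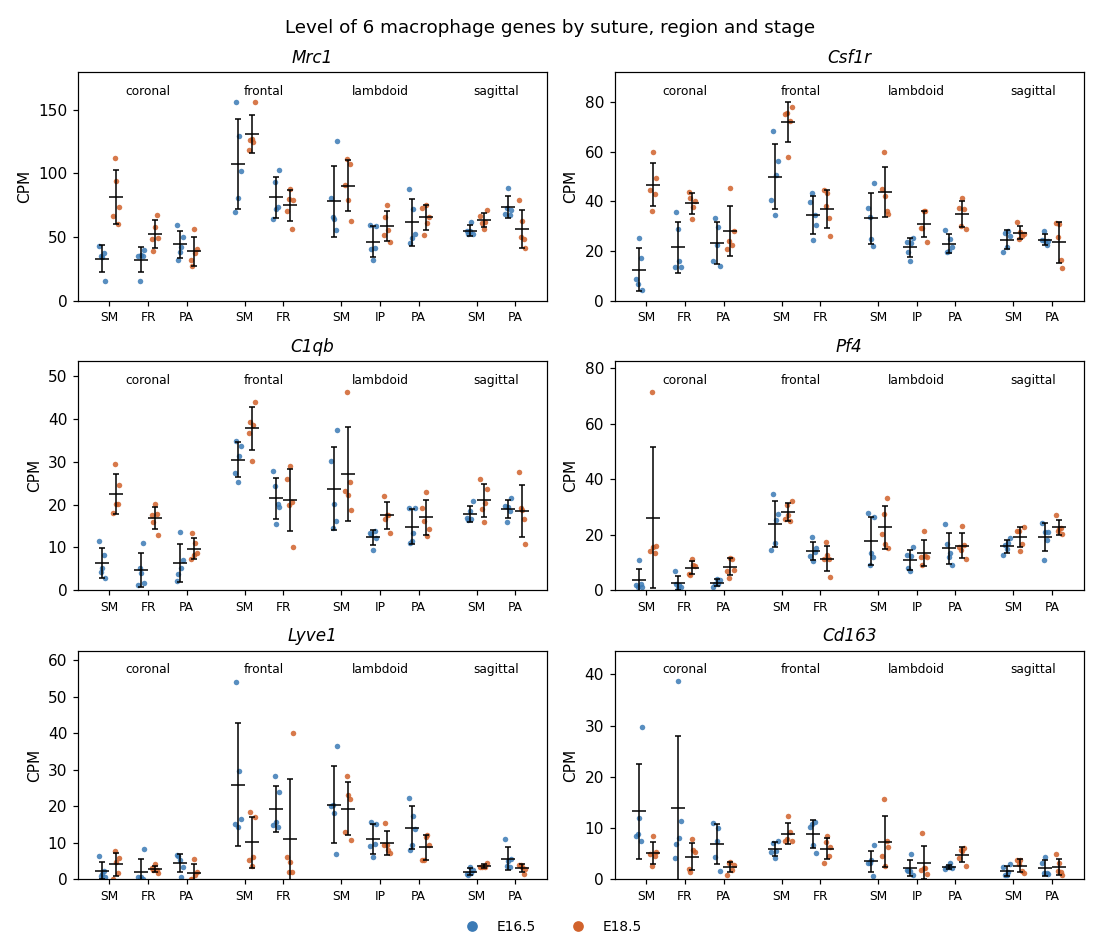
Levels (CPM, vertical axes) of Mrc1, Csf1r, C1qb, Pf4, Lyve1 and Cd163 in every first library of the 20 groups, drawn as points with the mean and SD of each group of 5, E16.5 in blue and E18.5 in orange. Mrc1 at E18.5 lies at 118 to 156 CPM in the frontal SM and at 56.0 to 88.1 CPM in the frontal FR, while Cd163 is highest in single libraries of the E16.5 coronal suture.

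The first question was whether these genes were higher between the bones than at the bone edges. At E18.5 they were: averaged over the 4 sutures, 8 of the 10 rose in SM over OF, where 19.9% of all genes tested were called higher, and all 10 estimates were above 0. The median log2 difference of the 10 was 0.52, against 0.03 over all genes tested. At E16.5 1 of the 10, C1qb, was called higher, where 21.4% of all genes tested were, and the median was 0.10 against 0.04 over all genes. The sutures each count once in these averages, and the fronts of a suture are averaged first.

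Among the scavenger receptors and chemokine, Mrc1 rose most firmly at E18.5, with 0.59 ± 0.10 (SE, adjusted p = 4.48e-07), and Pf4 by 0.84 ± 0.19 (adjusted p = 1.13e-04), which was 0.56 without the coronal suture. Mrc1 was higher in SM in 18 of the 20 sets of SM and fronts that carry the same suture, stage and litter label, against 10 of 20 at E16.5. Pf4 was higher in 15 of 20, against 11 of 20 at E16.5. Cd163 had 0.57 ± 0.24 (adjusted p = 0.0455), a call that was lost with any 1 of the 5 replicate numbers left out, where its adjusted p ran from 0.0576 to 0.103. Lyve1, at 0.51 ± 0.31, did not pass (adjusted p = 0.189).

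Of the complement chains, C1qb rose by 0.62 ± 0.15 (adjusted p = 2.58e-04) and C1qc by 0.53 ± 0.16 (adjusted p = 0.00625) at E18.5. C1qa had a similar value with a wider error, 0.45 ± 0.30 (adjusted p = 0.23). At E16.5 C1qb was higher by 0.37 ± 0.15 (adjusted p = 0.0312), which was lost without replicate 1 (adjusted p = 0.0992) or replicate 5 (adjusted p = 0.0575).

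The receptors gave the same direction at E18.5. Csf1r rose by 0.52 ± 0.12 (adjusted p = 1.28e-04), Fcrls by 0.52 ± 0.17 (adjusted p = 0.00885) and Adgre1 by 0.50 ± 0.21 (adjusted p = 0.0443). The Fcrls call was lost without replicate 2 (0.44, adjusted p = 0.0692) and the Adgre1 call without replicate 2, 4 or 5 (adjusted p between 0.0854 and 0.147). Leaving out 1 replicate number at a time left 5 to 7 of the 10 called, with Mrc1, Pf4, Csf1r, C1qb and C1qc called each time.

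**Figure D3:**
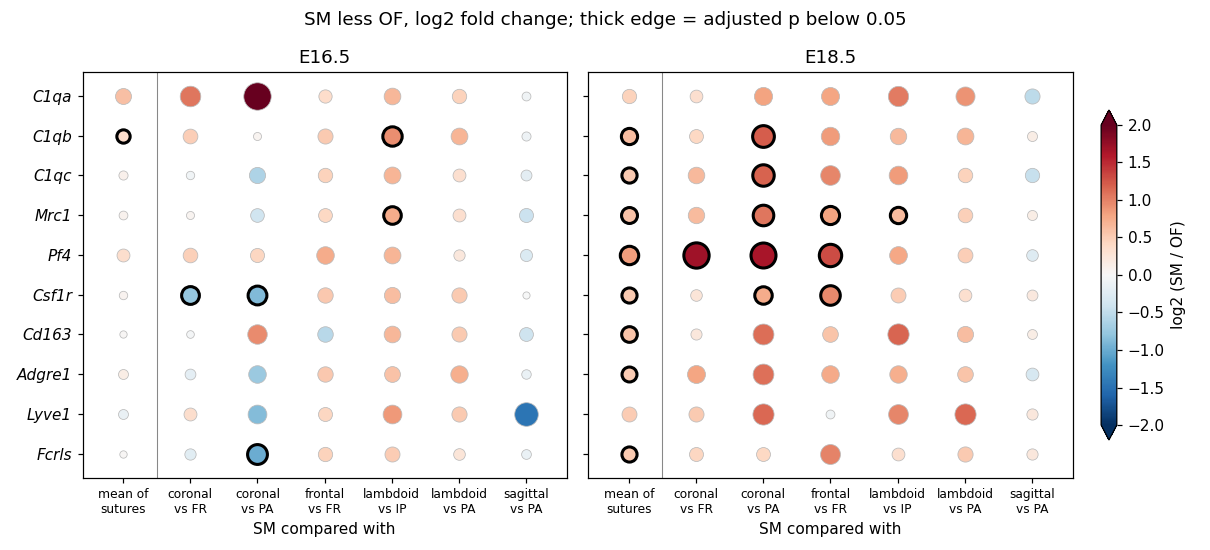
SM less OF as log2 differences for each gene (rows) as the mean of the sutures and in each of the 6 SM and front pairs (columns), at E16.5 and at E18.5. Dot size and colour give the log2 difference and a thick edge marks an adjusted p under 0.05 (edgeR). In the means at E18.5 all 10 dots are positive, from 0.45 to 0.84, and 8 carry a thick edge.

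Whether the step from OF to SM itself changed between the stages was tested as the E18.5 difference less the E16.5 difference. It was called for 0 of the 10 genes by edgeR, DESeq2 and limma-voom, and 3 had an unadjusted p under 0.05 with edgeR. Over all genes tested 0.703% were called in either direction. Mrc1 came closest, at 0.50 ± 0.14 (adjusted p = 0.0705). With the litter label as a block Mrc1 was called, at 0.52 (adjusted p = 0.036). The call at E18.5 and its absence at E16.5 do not by themselves show a difference between the stages for any of the 10 genes. For Mrc1 the call of that difference in the first libraries depended on the block. With the second coronal libraries added, in place of the first or alone, a gene was also called without the block, as counted in the last section.

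Within single sutures the 10 genes gave 15 calls over 12 SM and front pairs, 12 higher and 3 lower in SM. The share of all genes called is given with each pair. These calls come from the fit of all groups together. With each suture and stage fitted alone, 12 of the 15 were kept and 3 kept only their direction. Further genes were called in those fits, as counted in the last section, so a missing call below depends on the fit. The frontal suture at E18.5 showed the cleanest separation, with 7 of the 10 genes higher in every SM library than in every FR library, a pattern shown by 5.68% of all genes tested. In the fit 3 of them were called (4.23% of all genes), and the median over the 10 was 0.83. Mrc1 read 118, 127, 127, 125 and 156 CPM in the frontal SM and 70.8, 80.3, 88.1, 56.0 and 79.2 CPM in the FR front. The SM libraries all lay above the FR libraries, and the difference was 0.81 ± 0.22 (adjusted p = 0.00554). Csf1r read 75.4, 75.8, 58.1, 72.4 and 78.3 CPM in the SM and 44.7, 38.1, 43.2, 33.4 and 26.03 CPM in the FR front, 0.96 ± 0.25 (adjusted p = 0.00488), again with no overlap. The Mrc1 and Csf1r calls were lost without replicate 4 (adjusted p = 0.0809 and 0.0563).

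Pf4 in the frontal suture at E18.5 was 25.7, 30.8, 27.0, 24.8 and 32.1 CPM in the SM and 11.2, 17.2, 12.5, 11.2 and 4.83 CPM in the FR front. It was higher by 1.30 ± 0.41 (adjusted p = 0.024), a call lost without replicate 4 or 5 (adjusted p = 0.105 and 0.187). Fcrls separated as widely, at 24.2, 23.002, 22.7, 21.8 and 24.2 CPM against 12.9, 10.1, 16.4, 8.30 and 10.4 CPM, yet with 1.00 ± 0.37 it did not pass (adjusted p = 0.0652). C1qb, C1qc and Adgre1 were the other genes without overlap. Lyve1 was higher in the SM than in the FR front in 2 of the 5 sets with the same litter label, and 1 FR library stood far above the others: the FR front read 6.12, 2.11, 4.73, 2.03 and 40.1 CPM and the SM 5.29, 18.3, 3.73, 6.25 and 16.9 CPM. Without that FR library (replicate 5) the Lyve1 mean over sutures at E18.5 was 0.89 and passed (adjusted p = 0.0112). At E16.5 the frontal SM gave 9 of 10 positive values and 0 calls by edgeR, DESeq2 and limma-voom, with 1 unadjusted p under 0.05 (7.91% of all genes were called).

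In the coronal suture at E18.5, 5 of the 10 genes were called higher in the SM than in the PA front, where 8.27% of all genes were, with a median of 1.11 over the 10. Mrc1 read 66.9, 112, 93.8, 60.6 and 74.0 CPM in the SM and 31.8, 27.1, 56.2, 37.8 and 40.7 CPM in the PA front, 1.08 ± 0.22 (adjusted p = 7.9e-05), with no overlap. C1qb read 18.01, 29.5, 20.2, 20.1 and 24.6 CPM against 7.18, 13.4, 8.31, 11.1 and 8.56 CPM, 1.22 ± 0.32 (adjusted p = 0.0029), also with no overlap. C1qc was higher by 1.18 ± 0.36 (adjusted p = 0.0114). Csf1r was higher by 0.74 ± 0.25 (adjusted p = 0.0283, lost without replicate 1 or 4), at 44.7, 36.4, 59.9, 43.2 and 49.7 CPM against 20.9, 23.9, 45.3, 22.5 and 28.1 CPM, where 1 PA library reached into the SM range. Of the 10 genes 5 did not overlap, against 4.65% of all genes tested.

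In the first libraries, the size of the Pf4 difference in the coronal suture at E18.5 depended on 1 library. The SM libraries read 14.1, 71.5, 15.6, 13.4 and 16.04 CPM, the FR front 5.90, 5.55, 11.2, 9.13 and 8.63 CPM and the PA front 6.99, 4.53, 11.7, 11.3 and 7.18 CPM. Every SM library lay above every front library, and the fit gave 1.69 ± 0.41 over FR (adjusted p = 0.00498) and 1.65 ± 0.41 over PA (adjusted p = 0.00165). Without replicate 2, which held the library at 71.5 CPM, the values were 0.77 (adjusted p = 0.616) and 0.73 (adjusted p = 0.278). In the second libraries, none of which came from replicate 2, Pf4 read 53.4 to 66.4 CPM in the SM, 34.4 to 40.3 CPM in the FR front and 19.7 to 40.6 CPM in the PA front (3 libraries each), again with every SM library above every front library. From these alone the difference was 0.72 over FR (adjusted p = 0.189) and 1.18 over PA (adjusted p = 0.00695), so the call over PA was kept and that over FR was not. Pf4 was the only member called against the FR front at that stage, where 1.04% of all genes were called higher, and 2 of the 10 had no overlap with FR, against 1.32% of all genes.

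In the coronal suture at E16.5, 1 of the 10 genes was called lower in SM against FR and 2 against PA, shares near the 14.9% and 16.6% of all genes called lower. Csf1r read 8.79, 6.65, 25.3, 17.03 and 4.35 CPM in the SM, 13.7, 36.0, 28.7, 15.9 and 13.4 CPM in the FR front and 15.97, 33.5, 22.4, 29.7 and 13.996 CPM in the PA front. The groups overlapped, and Csf1r fell in SM by 0.77 ± 0.25 against FR (adjusted p = 0.0153) and by 0.88 ± 0.25 against PA (adjusted p = 0.00445). Both calls were lost without replicate 2 (-0.36 and -0.53, adjusted p = 0.343 and 0.14), and with the second libraries alone the values were 0.02 and -0.09. Fcrls fell against PA by 0.99 ± 0.37 (adjusted p = 0.0302), at 5.14, 1.62, 0.125, 7.10 and 1.39 CPM against 5.11, 9.56, 7.47, 1.94 and 6.89 CPM. The ranges overlap, the call was lost without replicate 2, 3 or 5 (adjusted p between 0.192 and 0.305), and the second libraries alone gave -0.91 (adjusted p = 0.0343). These 3 calls were also lost with total counts without TMM (adjusted p between 0.0747 and 0.127) and with each suture and stage fitted alone (0.355 to 0.608).

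In the lambdoid suture all 10 values were positive against both fronts at both stages, with few calls. Against the IP front at E16.5, 2 genes were called (3.90% of all genes), Mrc1 at 0.75 ± 0.22 (adjusted p = 0.0118) and C1qb at 0.94 ± 0.32 (adjusted p = 0.0402). C1qb read 30.2, 14.5, 20.2, 16.2 and 37.4 CPM in the SM and 13.2, 12.99, 9.35, 13.9 and 12.2 CPM in the IP front, with no overlap. For this pair the share of all genes without overlap is not given. With the litter label as a block the C1qb call was lost (0.86, adjusted p = 0.0833), as it was without replicate 1, 3 or 5, and the Mrc1 call was lost without replicate 5 (0.66, adjusted p = 0.0544). At E18.5 Mrc1 was called against IP at 0.63 ± 0.22 (adjusted p = 0.0284, against 7.34% of all genes called higher), and this was lost without replicate 1 (adjusted p = 0.0606) or 4 (adjusted p = 0.146) and with limma-voom (adjusted p = 0.0652). Against the PA front 0 genes were called by edgeR at either stage, with 2 at an unadjusted p under 0.05 at each. By edgeR 23.1% of all genes were called at E16.5 and 24.6% at E18.5. DESeq2 called 2 of the 10 at each stage, and its share of all genes is not given.

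The sagittal suture gave 0 calls between SM and PA at either stage. At E16.5 0 of the 10 values were positive, the median was -0.17, and 0 genes were called by edgeR, DESeq2 or limma-voom, with 2 at an unadjusted p under 0.05, where 17.7% of all genes were called in either direction. Mrc1 read 54.4, 52.2, 54.4, 62.05 and 52.2 CPM in the SM and 68.2, 72.6, 88.6, 67.7 and 71.1 CPM in the PA front. Every SM library lay below every PA library, at -0.43 ± 0.21 (adjusted p = 0.176). The share of all genes separated in this way is not given for this pair. Lyve1 read 1.42, 1.28, 3.48, 1.77 and 2.47 CPM in the SM and 11.0, 3.55, 5.08, 3.30 and 5.50 CPM in the PA front, a difference of -1.46 ± 0.69 (adjusted p = 0.146) with 1 pair of libraries crossing. At E18.5 6 of 10 values were positive, with a median of 0.15 and 0 calls (0 at an unadjusted p under 0.05, 0 by DESeq2 and limma-voom), where 25.3% of all genes were called.

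Counting the sets that share a litter label, the summed SM level was above its fronts in 0 of 5 coronal, 5 of 5 frontal, 4 of 5 lambdoid and 0 of 5 sagittal sets at E16.5. At E18.5 it was above in 5 of 5 coronal, 5 of 5 frontal, 5 of 5 lambdoid and 3 of 5 sagittal sets. The difference of the SM and OF step among the sutures was itself tested by an F test chosen after seeing the data. At E16.5 it was called for Mrc1 (adjusted p = 0.0209) and Csf1r (adjusted p = 0.00205), where 12.4% of all genes were, and at E18.5 for Pf4 (adjusted p = 0.037), where 9.23% were. The size of the coronal Pf4 step depended on 1 library, as given above, and the F test was not repeated without it. Front against front of the same suture gave 0 calls over 40 values with edgeR and DESeq2 and 1 with limma-voom (C1qb, coronal E18.5), with 4 at an unadjusted p under 0.05. Of all genes 14.4% were called between the coronal fronts at E16.5 and 5.44% at E18.5, and 0.486% and 0.0101% between the lambdoid fronts.

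The next question was how the levels moved from E16.5 to E18.5. In every suture the stages carry different litter labels, so stage cannot be told apart from litter. In the SM, averaged over sutures, 7 of the 10 genes rose, where 5.14% of all genes did. Csf1r rose by 0.75 ± 0.13 (adjusted p = 5.2e-06), Fcrls by 0.88 ± 0.18 (adjusted p = 2.62e-04), Pf4 by 0.94 ± 0.20 (adjusted p = 3.87e-04) and Mrc1 by 0.50 ± 0.11 (adjusted p = 4.41e-04). C1qb, C1qc and Adgre1 rose by 0.63, 0.57 and 0.84. Of these calls C1qc was lost without replicate 1, 2 or 4 (adjusted p between 0.0764 and 0.0977), C1qb without replicate 2 (adjusted p = 0.0754) and Adgre1 without replicate 3 (adjusted p = 0.0628). With the second coronal libraries in place of the first, Pf4 (0.73, adjusted p = 0.0542) and C1qb (0.48, adjusted p = 0.0505) were lost. In the OF 2 genes were called, C1qa (1.04 ± 0.29, adjusted p = 0.00759) and C1qb (0.39 ± 0.14, adjusted p = 0.0456), against 6.05% of all genes. Neither call held under every alternative: C1qa was -0.04 without the coronal suture and 0.11 with the second coronal libraries in place of the first, and was not called by limma-voom (adjusted p = 0.112). C1qb was lost without replicate 1, 2 or 3 (adjusted p between 0.128 and 0.167) and was 0.12 without the coronal suture.

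Most of this came with the coronal suture. Its SM had 8 genes called higher at E18.5, where 13.5% of all genes were called higher and 13.6% lower, and in all 8 every E18.5 library lay above every E16.5 library, as in 4.09% of all genes. Csf1r went from 8.79, 6.65, 25.3, 17.03 and 4.35 CPM to 44.7, 36.4, 59.9, 43.2 and 49.7 CPM, a rise of 1.902 ± 0.26 (adjusted p = 2.25e-08). Mrc1 went from 43.0, 35.4, 34.7, 37.2 and 15.1 CPM to 66.9, 112, 93.8, 60.6 and 74.0 CPM, a rise of 1.29 ± 0.22 (adjusted p = 3.5e-06). Neither gene overlapped between the stages.

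Pf4 in the coronal SM went from 1.95, 1.151, 10.8, 2.31 and 1.03 CPM to 14.1, 71.5, 15.6, 13.4 and 16.04 CPM, a rise of 2.90 ± 0.43 (adjusted p = 2.18e-07) that was 1.87 (adjusted p = 5.29e-04) without replicate 2. Of 8 megakaryocyte genes 4 were tested, and beside Pf4 2 of them rose in the coronal SM, Itgb3 (1.06), which osteoclasts also express, and Ppbp (3.90, named after its value was seen), with a median of 1.54. In the coronal OF 3 of the 4 rose (median 1.65). The summed level of these genes was 4.35 to 29.5 CPM in the coronal SM at E16.5 and 23.8 to 41.4 CPM at E18.5, and 22.7 to 54.6 CPM and 28.8 to 46.9 CPM in the second libraries. The part of megakaryocytes or platelets in the Pf4 rise was not tested. C1qb went from 11.6, 4.22, 5.19, 8.30 and 2.72 CPM to 18.01, 29.5, 20.2, 20.1 and 24.6 CPM, a rise of 1.80 ± 0.32 (adjusted p = 1.26e-05). Adgre1 went from 0.300, 10.5, 2.49, 9.72 and 0.0605 CPM to 20.3, 15.4, 16.6, 16.1 and 25.1 CPM, a rise of 2.00 ± 0.46 (adjusted p = 5.69e-04). For Adgre1 every E18.5 library lay above every E16.5 library. Fcrls rose by 2.00 ± 0.38 and C1qc by 1.30 ± 0.36 (adjusted p = 3.23e-05 and 0.00368).

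C1qa was at or near the floor in the coronal suture at E16.5, at 0 to 0.291 CPM in all 15 libraries. In the coronal SM at E18.5 it read 1.84, 0.760, 0.554, 0.519 and 1.94 CPM. Its fitted rises of 3.34 ± 0.75 in SM and 4.31 ± 0.60 in OF (adjusted p = 3.7e-04 and 1.55e-08) start from so few counts that their size depends on the prior count of the fit. Cd163 went the other way, from 8.44, 8.95, 11.97, 7.57 and 29.7 CPM to 5.00, 2.64, 8.55, 4.49 and 5.35 CPM in the SM. It fell by 1.35 ± 0.51 (adjusted p = 0.0368), with 1 E18.5 library inside the E16.5 range, and the call was lost without replicate 1, 2, 4 or 5. The call was also lost with total counts without TMM (-0.83, adjusted p = 0.213) and with no filter on low counts (-1.29, adjusted p = 0.0666). In the coronal OF Cd163 fell by 1.56 ± 0.36 (adjusted p = 3.93e-04), and Pf4, C1qb, Fcrls and Csf1r rose by 1.68, 1.25, 0.97 and 0.58, where 33.1% of all genes were called in either direction. The Csf1r rise was lost without replicate 1 or 5 (adjusted p = 0.0827 in both).

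**Figure D4:**
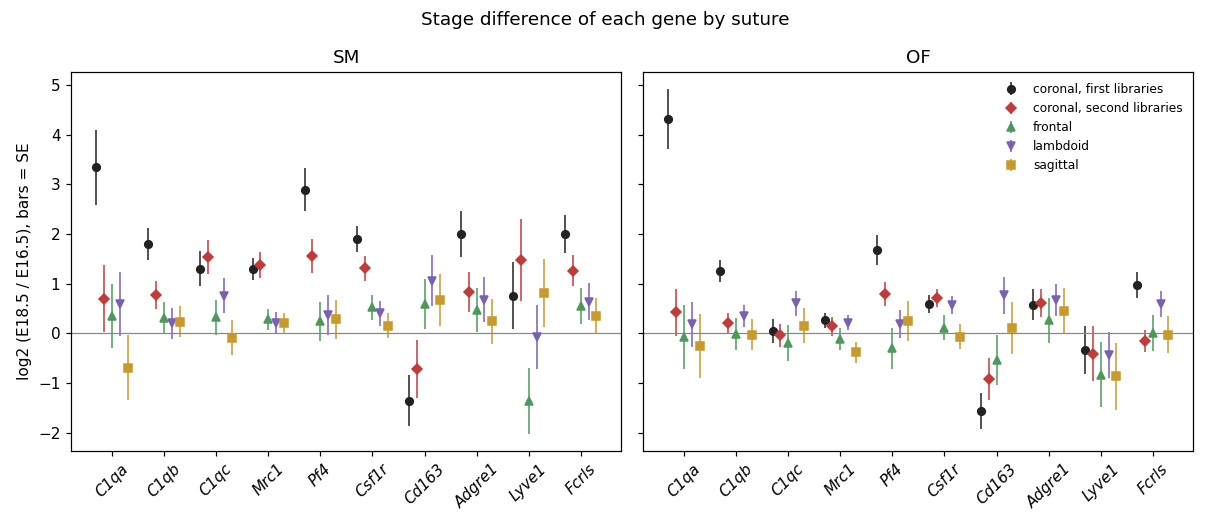
E18.5 less E16.5 as log2 differences with SE for each gene in SM and in OF, for the coronal first libraries, the coronal second libraries, and the frontal, lambdoid and sagittal sutures. In SM the coronal first libraries lie above the other sutures for 8 genes and below them for Cd163, and C1qa is at 3.34 in the first libraries and 0.70 in the second.

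The SM of the frontal, lambdoid and sagittal sutures gave 0 calls between the stages by edgeR, DESeq2 and limma-voom, where 2.33%, 2.96% and 1.12% of all genes were called. Unadjusted p-values under 0.05 numbered 2, 2 and 0. The fronts of these sutures gave 0 calls by edgeR as well, where 2.19%, 1.63% and 1.15% of all genes were called higher, with 0, 5 and 0 unadjusted p-values under 0.05, 1 call by DESeq2 (Csf1r, lambdoid) and 1 by limma-voom (Lyve1, frontal). The medians over the 10 genes were 0.33, 0.50 and 0.24 in the SM, against 1.85 in the coronal SM, and -0.10, 0.45 and -0.03 in the fronts, against 0.58 in the coronal fronts. The difference in stage change among the sutures was called in SM for 6 genes (Mrc1, C1qa, C1qb, Pf4, Csf1r and Cd163), where 15.8% of all genes were, and in OF for C1qa, C1qb, Pf4 and Cd163, where 22.0% were. With the coronal suture left out, the SM means over the other sutures were called for 4 genes, where 8.30% of all genes were called higher, at 0.36 for Csf1r, 0.51 for Fcrls, 0.46 for Adgre1 and 0.77 for Cd163, and 0 of the differences among sutures were called. For Pf4, Mrc1, C1qb and C1qc the means without the coronal suture were 0.29, 0.23, 0.25 and 0.33 (adjusted p = 0.174, 0.13, 0.17 and 0.0927).

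The 18 second coronal libraries, whose preparation the labels do not describe, come from 9 of the coronal samples of each stage and give another reading of them. C1qa, C1qb and Pf4 were higher in the second library than in the first of the same sample in 9 of 9 at both stages. The median of C1qa went from 0 to 3.89 CPM at E16.5 and from 0.688 to 5.46 CPM at E18.5. The median of Pf4 went from 2.12 to 18.1 CPM and from 11.3 to 40.3 CPM, and that of C1qb from 4.22 to 19.6 CPM and from 17.5 to 25.3 CPM. Mrc1 was higher in the second library in 3 of 9 and 2 of 9. Thus the level of C1qa and Pf4 in the coronal suture, and with it the distance to other sutures, depended on which libraries were read.

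From the second libraries alone (3 per group), the coronal SM still gave 5 genes called higher at E18.5, where 3.47% of all genes were: Pf4 (1.55), C1qc (1.53), Mrc1 (1.37), Csf1r (1.31) and Fcrls (1.26). C1qb had 0.78 (adjusted p = 0.0745), Adgre1 0.83 (adjusted p = 0.205), C1qa 0.70 (adjusted p = 0.593) and Cd163 -0.72 (adjusted p = 0.51). In the coronal OF the second libraries alone kept 2 of the 6 calls, where 15.7% of all genes were called in either direction, Pf4 at 0.79 (adjusted p = 0.0148) and Csf1r at 0.71 (adjusted p = 0.00358). There C1qb had 0.21 (adjusted p = 0.51), C1qa 0.42 (adjusted p = 0.6), Cd163 -0.93 (adjusted p = 0.119) and Fcrls -0.16 (adjusted p = 0.686). The summed level in these libraries averaged 119 CPM ± 16.7 (SD, n = 3) in SM at E16.5 and 280.04 ± 33.3 at E18.5. The FR front went from 119 ± 21.5 to 202 ± 7.56 and the PA front from 164 ± 34.9 to 143 ± 22.2. As in the first libraries, the SM ranked lowest or level with FR at E16.5 and highest at E18.5.

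Levels in SM also differed among the sutures. Their first libraries carry different litter labels, some of which differ between sutures only in the last number, and differ in depth. The labels do not state whether the first libraries of each suture were made as a separate set. Suture therefore cannot be told apart from such sets. At E16.5 the F test among the 4 sutures was called for 10 of 10 genes, where 56.1% of all genes were, and at E18.5 for 7 of 10, where 46.3% were, the exceptions being C1qb, Pf4 and Fcrls. Shares of all genes this high leave little room to single out these 10. C1qa and Pf4 at E16.5 were not called when the coronal suture was left out (adjusted p = 0.324 and 0.0742).

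The complete-suture controls at E18.5, in which the whole width of a suture was read, gave the frontal suture the highest summed level in 4 of 4 sets. It read 522, 390.06, 389 and 512 CPM in sets C, IF, L and S. The sagittal suture was the lowest in 4 of 4, at 304, 219, 236 and 303 CPM. The order below the frontal suture depended on the genes summed: over the wider macrophage list the coronal suture was lowest in 4 of 4 sets, at 946, 953, 903 and 961 CPM, and the sagittal second highest, at 1051, 1095, 996 and 1107 CPM. In each set the frontal sum of the 10 genes was at least 1.31 times the next suture. The labels call all 16 libraries normalization controls, give them the same replicate number and do not describe the sets as replicates. Whether the sets read separate samples of a suture is not stated. Counts over the 4 sets are therefore values without a test.

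**Figure D5:**
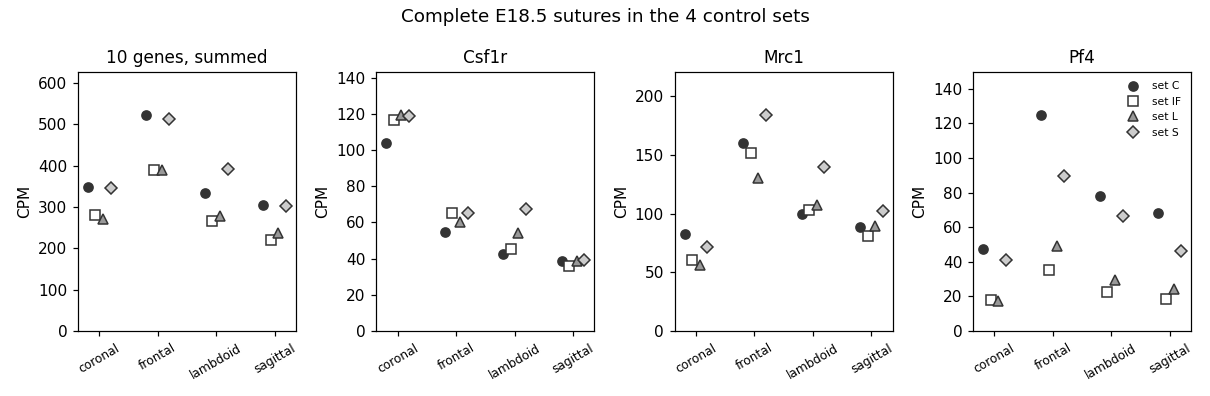
Levels (CPM) of the summed 10 genes, Csf1r, Mrc1 and Pf4 in the 16 complete-suture libraries at E18.5, by suture, with a marker for each of the 4 sets. Summed levels are highest in the frontal suture in every set (389 to 522 CPM), and Csf1r alone is highest in the coronal suture (104 to 119 CPM).

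The 7 genes C1qb, C1qc, Mrc1, Pf4, Cd163, Lyve1 and Fcrls were highest in the frontal suture in all 4 sets. Mrc1 in the frontal suture was 161, 152, 130.1 and 184 CPM in sets C, IF, L and S, against 82.5, 60.7, 56.0 and 71.5 CPM in the coronal suture, its lowest. Pf4 varied by set, with 125, 35.4, 48.9 and 89.3 CPM in the frontal suture, and was lowest in the coronal suture in every set. Lyve1 was 24.2 to 33.2 CPM in the frontal and 5.60 to 9.73 CPM in the coronal suture, also its lowest.

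C1qa and Adgre1 were highest in the frontal suture in 2 of 4 sets each, and Csf1r in none. Csf1r was highest in the coronal suture in 4 of 4 sets, at 104, 117, 119 and 119 CPM, against 35.9 to 67.6 CPM in the other sutures. Beside it, the summed osteoclast list was 1355 to 1645 CPM in the coronal controls and 194 to 371 CPM in the others, and the summed pan-leukocyte list 305 to 366 CPM against 178 to 303 CPM. In the laser-captured coronal groups the osteoclast sum had group medians of 208 to 363 CPM. Osteoclasts and their precursors express Csf1r, and their part in the coronal value of the controls was not tested.

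Of 40 further macrophage genes 34 were tested, and at E18.5 15 were called higher in SM than in OF and 1 lower (median 0.48), where 19.9% of all genes were called higher. At E16.5 8 were called higher and 1 lower (median 0.23), a share near the 21.4% of all genes. F13a1, the A chain of coagulation factor XIII, had 0.70 ± 0.12 at E18.5 (adjusted p = 3.45e-07) and 0.24 at E16.5 (adjusted p = 0.0874). Stab1, a scavenger receptor also made by sinusoidal endothelium, had 0.41 (adjusted p = 0.0119) and -0.13. Dab2 and Maf, which stromal cells also express, were higher in SM at both stages (Dab2 1.04 and 0.83, Maf 0.96 and 1.11 at E18.5 and E16.5).

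Among 10 pan-leukocyte genes, 6 were called higher in SM and none lower at E18.5, beside 19.9% higher over all genes, and 2 higher at E16.5, at the 21.4% over all genes. Laptm5 had 0.84 and 0.65 and Fcer1g, the signalling chain of Fc receptors, 0.54 and 0.42 at E18.5 and E16.5. Of 7 antigen presentation genes, 6 were higher at E18.5 and 4 at E16.5 (medians 1.29 and 0.89), with Cd74, the MHC class II invariant chain, at 1.32 and 1.37. Of 14 complement genes besides C1q, 5 were higher and 3 lower at E18.5 and 4 higher and 3 lower at E16.5; Lrp1 was higher (0.72) and Calr lower (-0.52) at E18.5. Complement components are made by stromal cells as well.

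The 2 ligands of the CSF1 receptor were not called in SM less OF, and their difference from Csf1r was not tested. Csf1 averaged 44.9 CPM and had -0.14 (adjusted p = 0.247) in SM less OF at E18.5 and -0.03 (adjusted p = 0.85) at E16.5. Il34 averaged 0.976 CPM, too low for a missing call to say much, and was not called at either stage (adjusted p = 0.45 and 0.212). Of 9 tested genes of the CSF1R axis and myeloid factors, 1 was higher and 2 lower at E18.5.

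Lists of other cell types were read beside these, to be set against the 19.9% of all genes called higher and 22.4% called lower in the same comparison. At E18.5 SM against OF gave 1 of 8 osteoclast genes higher and 1 lower, 3 of 6 mast cell genes higher, 1 of 4 megakaryocyte genes higher and 1 lower, and 1 of 4 lymphatic genes higher. Of 7 erythroid genes 0 were called, of 10 endothelial genes 1 was higher, and of 6 microglia genes 1 was higher and 2 lower. Ctsk, the osteoclast cathepsin, had 0.14 (adjusted p = 0.494) and Pecam1, an endothelial gene, 0.26 (adjusted p = 0.0763). Kit, a mast cell receptor with other sources, had 0.61 (adjusted p = 0.00595). The part of these cells in the members' differences was not tested.

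In the coronal SM from E16.5 to E18.5, 18 of the 34 macrophage genes were called higher and 2 lower (median 1.23), in the same first libraries that gave the members' rise and beside 13.5% higher and 13.6% lower over all genes. F13a1 rose by 1.52 and Stab1 by 0.91, while Dab2 and Maf fell by 0.69 and 0.95. F13a1 and Stab1 were picked out by their correlation with the members in these libraries, so their rise is no separate reading. Of the pan-leukocyte genes 4 were higher and 1 lower, and of the 7 antigen presentation genes 1 was higher, near the share of all genes. Ctsk also rose, by 0.94 (adjusted p = 0.0224), and 2 of 8 osteoclast genes were called higher, Ctsk among them (median 1.104). Ctsk is not particular to osteoclasts here. In the E16.5 single-cell libraries 38.1% and 30.4% of its UMIs lay in cells with fewer than 2 pan-leukocyte and fewer than 2 endothelial genes. Of 7 erythroid genes 1 was lower in the coronal SM (median -1.56). Of 4 lymphatic endothelial genes 1 was lower in the SM (median -1.30). In the coronal OF, 12 of the 34 macrophage genes were higher and 4 lower, where 33.1% of all genes were called in either direction. There 3 of 8 osteoclast genes were higher and 2 lower, and 2 of 4 skeletal muscle genes were higher (median 3.20). Of 7 erythroid genes 3 were lower, and of 4 lymphatic genes 2 were lower. Averaged over sutures, the SM from E16.5 to E18.5 had 9 of the 34 macrophage genes higher and 1 lower, where 5.14% of all genes were higher. Of 10 pan-leukocyte genes 3 were higher, as were 3 of 10 endothelial genes (median 0.40). The part of these cells in the members' changes between stages was not tested.

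Across the 100 first libraries the 10 genes moved together to differing degrees. Over their 45 pairs the correlation of log2 CPM had a median of 0.54 and ran from -0.30 to 0.80, and with the group means removed the median was 0.13 (-0.14 to 0.53). Cd163 had the lowest median to the others, 0.045, but 0.56 over the 70 libraries of the other sutures, where the median of all pairs was 0.56 and C1qa (0.33) and Lyve1 (0.38) were lowest. The points share libraries, groups and depth, so these values are descriptions. The gene most like the mean of the 10, among those that are not members, was F13a1 (r = 0.897, 0.727 within groups), followed by Pamr1 (0.799, 0.452), Fcgr3 (0.787, 0.495), Unc93b1 (0.774, 0.419) and Themis2 (0.762, 0.420). Slc7a10, Oas2, Stab1, Snx33, Irf5, Dock2 and Fbxo10 came next, from 0.762 to 0.743.

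The single-cell libraries of the coronal suture were read for the cells that held these transcripts. The matrices of both libraries labelled E18.5 carry a library name with the code of the earlier stage, so their stage was taken from the labels. Their numbers of cells are those that the study's methods give for that stage. The E16.5 libraries did not match in this way. They kept 497 and 359 cells with more than 800 genes, and 682 and 685 with more than 500, fewer than the study's methods give. The E16.5 cells read here are therefore not the same set as the study's. No doublet caller was run. In cells with more than 800 genes, cells with at least 2 pan-leukocyte genes held 99.3% of the members' UMIs (unique molecular identifiers, each a counted transcript) in the first E16.5 library, 2551 of 2570, and 98.9% in the second, 1252 of 1266. Those cells were 154 of 497 and 138 of 359, with 37.6% and 38.5% of all UMIs. In the libraries labelled E18.5 the same rule took in 2460 of 2625 and 999 of 1624 cells, so the 99.6% and 93.01% of UMIs found there say little. With every cell thinned to 1500 UMIs, the leukocyte cells of those libraries were 522 and 207 (19.9% and 12.7% of cells) and held 94.0% and 72.6% of the members' UMIs.

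Within the E16.5 leukocyte cells Csf1r was shared with cells that also held at least 2 osteoclast genes. Cells without them held 57.1% of its UMIs in the first library and 54.7% in the second, and cells with them 41.6% and 45.3%. At least 3 of the 10 genes were seen in 59 of 107 and 50 of 76 leukocyte cells without osteoclast genes and in 6 of 47 and 13 of 62 with them. No endothelial cell and 0 and 1 of the remaining cells reached 3. Outside the leukocyte cells, where free RNA would show, any of the 10 genes had a UMI in 7 of 37 and 3 of 48 endothelial cells. In the remaining cells it was 8 of 306 and 4 of 173. Pf4 gave most of these. Whether they came from free RNA, doublets or leukocyte cells missed by the rule was not tested. Median depths were 2745 and 2286.5 UMIs in endothelial cells and 2338.5 and 2122 in the remaining cells. They were 2512 and 2016 in leukocyte cells without osteoclast genes. Leukocyte cells that also held at least 2 endothelial genes numbered 11 of 154 and 9 of 138, and leukocyte cells held 26.8% and 8.75% of the UMIs of the endothelial gene Pecam1. The part of doublets was not tested. Without those cells, 3 or more of the 10 genes were seen in 57 of 97 and 50 of 71 cells without osteoclast genes and in 6 of 46 and 10 of 58 with them. Cd163 had 10 and 1 UMIs, too few to place. Each library pools embryos and the stages were not compared. Barcodes were shared only between the libraries labelled E18.5, where 5 cells carried the same barcode.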

How the data were processed

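RNA from laser-captured regions was sequenced by the authors, aligned with STAR 2.5.3a to mm10 and deposited as raw counts per GENCODE gene from featureCounts 1.6.4, counted without strand, so that antisense overlaps cannot be told apart. The single-cell files hold the authors' deposited UMI counts per gene and cell. The second coronal libraries and complete-suture controls came in the same form. Grouping followed the labels, with 5 first libraries in each of 20 groups. The 10 members and all lists were chosen with earlier results of these data known.

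Genes with at least 1 CPM in more than 10% of the 100 first libraries were kept (19768). TMM scaling and 1 mean per group were fitted with edgeR 4.0.16 in R 4.3.3 (quasi-likelihood F test, two-sided, Benjamini-Hochberg over all kept genes within a comparison, threshold 0.05). Levels in CPM use TMM over all 134 bulk libraries. Alternatives were DESeq2 1.42.0, limma-voom (limma 3.58.1), other scalings and filters, a replicate block, left-out replicate numbers, and second libraries added, in place of the first or alone. The last of these, the fits without the coronal suture or the E18.5 frontal FR library 5, the thinning of cells, leaving out mixed cells and the F test of SM less OF among sutures were added after seeing the data.

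Same replicate numbers of a suture and stage share a litter label, which ends in a number that differs between replicates. The deviations of the 80 pairs with the same label correlated with a median of 0.051 (21 over 0.1), against -0.013 over 320 other pairs (14 over 0.1). The test was checked on simulated data for the SM less OF mean at E18.5 over 19768 genes, where 157 of 200 genes set 2-fold apart were recovered, with 8 false calls. The simulation had no litter effect and otherwise the same level of a gene in all groups. The members' log2 differences in that comparison were at most 0.84, below a 2-fold step, so recovery at their size was not checked. Besides the 10 members, genes were named from the 3 of each list with the highest mean level (not all of which are named), Csf1, Il34 and the 12 genes most correlated with the members. Depth in counts ranged from 5530060 in the second libraries to 34518477 in the first. P-values measure the spread between the samples, some of which appear to be littermates.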

Additional observations from a re-analysis of the deposited data

Results flagged for a closer look

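In each group of 5 libraries the highest and lowest values of the 10 genes and their sum were compared with the rest (Dixon's gap test), which by chance picks about 1 group in 20. It picked 15 of 220. At E16.5 these were Fcrls at 8.49 CPM in frontal FR replicate 3, C1qa at 0.235 CPM in coronal FR replicate 5, Mrc1 at 15.7 CPM in coronal FR replicate 2 and at 15.1 CPM in coronal SM replicate 5, and Lyve1 at 8.34 CPM in coronal FR replicate 5. Adgre1 at 1.82 CPM in coronal PA replicate 3, C1qa at 6.46 CPM in lambdoid SM replicate 5, and Mrc1 at 88.6 CPM in sagittal PA replicate 3 and 62.0 CPM in sagittal SM replicate 4 were the others of that stage. At E18.5 the frontal suture held 4: C1qa at 0 in FR replicate 5, Adgre1 at 4.04 CPM in FR replicate 2, Mrc1 at 156 CPM in SM replicate 5 and Csf1r at 58.1 CPM in SM replicate 3. The last at E18.5 were Pf4 at 71.5 CPM in coronal SM replicate 2, where the other 4 libraries lay at 13.4 to 16.04 CPM, and C1qc at 7.83 CPM in sagittal SM replicate 2.

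The change from E16.5 to E18.5 differed among the sutures, by edgeR's F test, in SM for C1qa (adjusted p = 0.0107), C1qb (0.0102), Mrc1 (0.00961), Pf4 (0.000377), Csf1r (0.000482) and Cd163 (0.0389). In OF it did so for C1qa (adjusted p = 1.06e-05), C1qb (0.00974), Pf4 (0.00276) and Cd163 (0.00286). In SM the Cd163 call was lost without replicate 1, 2, 4 or 5 and C1qa without 1, 2 or 5. C1qb and Mrc1 were lost without replicate 3 or 5 and Pf4 without 2, while Csf1r was kept each time. In OF C1qb was lost without replicate 1, 2 or 5 and Pf4 without 4. With limma-voom Cd163 was lost in SM (adjusted p = 0.063) and in OF (0.062). In SM the Cd163 call was also lost with total counts without TMM (adjusted p = 0.240) and with no filter on low counts (0.0705). The SM less OF difference differed among sutures at E16.5 for Mrc1 (adjusted p = 0.0209) and Csf1r (0.00205), and at E18.5 for Pf4 (0.037). The Pf4 test was not repeated without coronal SM replicate 2. In SM the coronal suture carried the high stage values, as given above, and the cause was not tested.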

How the results depend on the processing

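Over 48 called results of single genes, 777 alternative values were computed. Of these, 667 kept direction and call, 107 kept direction without the call, and 3 turned: Csf1r in coronal SM less FR at E16.5 (0.0171, second libraries alone), C1qa in the OF stage mean (-0.0365, without the coronal suture) and Fcrls in the coronal OF stage change (-0.161, second libraries alone).

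Counts of genes called moved by over 1.5 times, or with left-out replicate numbers, as follows, and the cause was not tested. The share of all genes called under each alternative is not given beside them. A higher or lower count is therefore not set against what all genes showed. For SM less OF at E16.5 (1 gene), DESeq2 gave 2, total counts without TMM 2, second libraries in place of the first 0, second libraries alone 2 and no coronal suture 3. At E18.5 (8 genes), left-out replicate numbers gave 5 to 7, and, within 1.5 times, no filter, filterByExpr and second libraries in place each gave 6, without Cd163 and Adgre1. For E18.5 less E16.5 of that difference (0 genes), the replicate block, second libraries added, in place or alone each gave 1. Within sutures (15), DESeq2 gave 25, each suture and stage fitted alone 38, second libraries alone 32 and left-out numbers 10 to 18.

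For the SM stage mean (7), no coronal suture gave 4 and left-out numbers 5 to 7. For the OF stage mean (2), DESeq2 gave 4, total counts 1, no filter 1, filterByExpr 1, second libraries in place 1, left-out numbers 1 to 3 and leaving out the E18.5 frontal FR library 5 gave 5. For SM stage changes within sutures (9), second libraries alone gave 5 and left-out numbers 8 to 9. For OF (6), second libraries in place gave 3 and left-out numbers 5 to 7. Stage change differing among sutures was called for 6 genes in SM, which became 3 with second libraries in place, 2 with them alone, 0 without the coronal suture and 2 to 6 with left-out numbers (2 without replicate 5). In OF (4), total counts gave 7, second libraries added 1, in place 1, alone 0, no coronal suture 0 and left-out numbers 3 to 4. SM among sutures gave 10 at E16.5 and 6 to 7 at E18.5 with left-out numbers. Front against front (0) gave 1 with total counts, limma-voom or each suture fitted alone, 2 with second libraries in place or alone, and 0 to 1 with left-out numbers.

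With the replicate block, calls within sutures numbered 14, and the pairing changed no call beside C1qb in the lambdoid suture and Mrc1 in the difference of differences. The block could not be fitted for stage changes, since litter labels do not cross stages. Total counts without TMM moved the median of all genes to 0.15 at E16.5 and 0.13 at E18.5 (SM less OF), from 0.04 and 0.03. The share of members' UMIs in leukocyte cells was 97.6% with 3 genes and 97.1% thinned in the second E16.5 library, 98.05% and 94.0%, and 99.5% without leukocyte cells holding endothelial genes, in the first library labelled E18.5, and 91.7% with cells over 500 genes, 86.2% with 3 genes, 72.6% thinned and 92.29% without such cells in the second library labelled E18.5.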
